A study of Mus musculus with 8 samples.

Results

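The human and rat miRNA hairpin entries to which reads of mouse hearts were assigned, and whose names occur in no mouse entry, comprised 99 of the 626 entry names in the tables. They were chosen by name alone, as the names listed for human or rat hairpins and in no table for a mouse hairpin. A further 27 human or rat names were set aside, those beginning with mir-1-, mir-133, mir-378, mir-3557, mir-3120 or let-7 and those that add a copy number to a mouse name, which left 500 names with a mouse entry. Small RNA was sequenced from the hearts of 4 female and 4 male wild-type C57Bl6/J adults, 4 to 6 weeks of age, for which the labels give no treatment. RNA enriched for molecules under 200 nt was extracted from each heart separately with the miRVANA kit, so the 4 libraries of a sex are separate animals. The design compares female with male hearts.

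A miRNA gene is transcribed as a hairpin, which is cut to a short duplex. One or both of its arms, named 5p and 3p, are then loaded into an Argonaute protein and guide it to target mRNAs, chiefly through the seed near the 5' end. Many miRNAs are conserved between mouse, rat and human, but their names can differ by a letter or a copy number. Some hairpins are annotated on the strand opposite to another miRNA, and then carry a number of their own.

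Sequences of mouse miRNAs that share a name, an alias or a locus with members are shown first. The following are mouse mature sequences on GRCm38.p6, written 5' to 3' with the seed, bases 2 to 8, in capitals. The first pair belongs to the mouse genes Mir7-1 and Mir7-2, whose RefSeq symbols equal the human names mir-7-1 and mir-7-2, and to their relative miR-7b. The latter shares the seed and differs by A10U, counted from the 5' end of miR-7a. miR-7a-5p lies at chr13:58392841-58392863 on the minus strand in its Mir7-1 copy, and miR-7b-5p at chr17:56243017-56243040 on the plus strand.
miR-7a-5p: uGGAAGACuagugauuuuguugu
miR-7b-5p: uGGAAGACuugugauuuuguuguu
The next pair belongs to a gene cluster on chromosome 11, where RefSeq matches the name mir-497 to the gene Mir497 and mir-195 to Mir195a. miR-497a-5p lies at chr11:70234730-70234751 and miR-195a-3p at chr11:70235100-70235121, both on the plus strand.
miR-497a-5p: cAGCAGCAcacugugguuugua
miR-195a-3p: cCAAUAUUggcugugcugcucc
The last group shows hairpins that face each other on opposite strands. The Mir3074-1 and Mir24-1 hairpins overlap by 68 bases, and 20 of the 22 bases of miR-3074-5p, at chr13:63301249-63301270 on the minus strand, equal the reverse complement of miR-24-3p, at chr13:63301251-63301272 on the plus strand. The Mir299b hairpin lies within Mir299a over all its 49 bases, and 18 of the 21 bases of miR-299b-5p, at chr12:109710673-109710693 on the minus strand, equal the reverse complement of miR-299a-3p.
miR-3074-5p: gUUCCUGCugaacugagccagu
miR-24-3p: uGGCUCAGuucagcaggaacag
miR-299b-5p: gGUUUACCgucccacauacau
Human and rat mature sequences were not used here, so no member was compared with a mouse miRNA by sequence.

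The libraries held 29900500 to 38894987 counts each. Levels of the muscle markers among the mouse entries varied widely. mir-1b stood at 228185 to 329119 CPM (counts scaled to library size and by trimmed mean of M values), all on its 5' arm. On that arm 3.34% of the mouse mir-1 counts matched the listed mature sequence exactly, and on the 3' arm none of 268729 did. mir-499, encoded in a cardiac myosin gene, stood at 2419 to 8110 CPM and mir-1a at 802 to 1190 CPM. Lower were mir-208a at 98.6 to 454 CPM, mir-133a at 47.5 to 129, mir-133b at 14.2 to 118 and mir-208b at 3.67 to 13.1. The liver miRNA mir-122 stood at 0.930 to 6.29 CPM. Of the neural markers, mir-9 stood at 114 to 247 CPM, whereas mir-124 was not listed in any heart. Female replicate 3 stood apart by its scaling factor of 1.41, against 0.847 to 1.06 in the other hearts. Non-zero counts below 10 did not occur among reads unique to one entry, so an entry at 0 in a heart is only listed at 0 and no limit of detection was derived.

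The members took a small part of the libraries, and most of that part fell to a few rat names. They held 1777148 counts on mature arms over all hearts, or 0.681% of mature counts on average. The share was 0.603%, 0.604%, 0.612% and 0.840% in female replicates 1 to 4, and 0.668%, 0.769%, 0.843% and 0.509% in male replicates 1 to 4. Female hearts averaged 0.665% ± 0.117 and male hearts 0.697% ± 0.144 (SD, n = 4), and the sexes overlapped. Rat names held 73.0% of the member counts and human names 27.0%. Rat mir-3596d alone held 48.9% and the leading 5 miRNAs held 85.6%. Leaving out mir-3596d, a choice made after its values were seen, the share was 0.348% on average and ran from 0.284% to 0.412%.

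**Figure D1:**
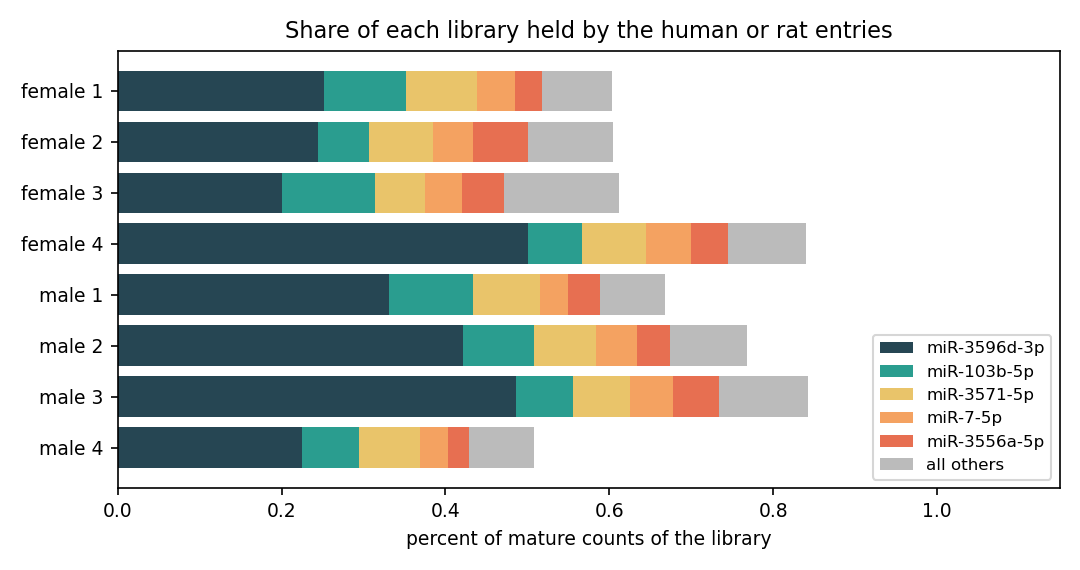
Share of the mature counts of each heart's library, in percent, held by human or rat entries without a mouse entry of the same name. Colours mark the 5 leading miRNAs and grey all others. The widest segment in each of the 8 hearts is miR-3596d-3p, and the bars end between 0.509% and 0.843%.

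Of the 102 species entries behind the 99 names, 84 had counts on a mature arm and 18 had only other reads on the hairpin. mir-1469 was nearly of the second kind, with 16 mature counts and 3276 others. Of the 84 entries with mature counts, 61 were listed in all 8 hearts and 5 in a single heart. After numbered copies that share their reads were summed, 78 member miRNAs remained, counted by name and arm, of which 8 exceeded 100 CPM on average and 25 stayed under 1 CPM.

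For 8 of the 99 names RefSeq has a mouse gene, by symbol or alias, whose mouse entries in the tables carry a slightly different name. These are mir-145 for mir-145a, mir-7-1 and mir-7-2 for mir-7a-1 and mir-7a-2, mir-195 for mir-195a, mir-497 for mir-497a, mir-126 for mir-126a, mir-26a for mir-26a-1 and mir-1843 for mir-1843a. Together they held 8.52% of the member counts. Reads that match the listed mature sequence exactly, as the column headers put it, made up 59.5% of their counts, against 12.2% over all members and 26.2% over the mouse entries.

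miR-7-5p, a miRNA of neurons and endocrine cells found at lower levels elsewhere, was the most abundant of these. It was listed under human mir-7-1, mir-7-2 and mir-7-3 with 39828, 39805 and 39887 counts. No RefSeq mouse gene was matched to mir-7-3, whose counts belong to the shared-number names below, but all 3 copies are summed here. Their exact counts differed by at most 1 in any heart and nearly all reads were shared between the copies, the values that an even division of shared reads would leave. The summed level was 530, 460, 328 and 561 CPM in the female hearts and 398, 478, 498 and 409 CPM in the male hearts, so the sexes overlapped and female replicate 3 was lowest. Exact reads made up 71.7% to 80.3% of it by heart. The mouse mir-7 entries held 23253 counts on the same arm, of which 41.8% were exact. Human and rat entries of mouse names held a further 1408. The 3 human names carried 82.9% of the 5' arm counts of all mir-7 entries, mouse mir-7b among them, and 74.4% to 87.6% by heart.

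miR-145-3p, from a smooth muscle miRNA gene, was listed under human and rat mir-145 with 36799 and 20753 counts. Its level was 174, 271, 230.3 and 237 CPM in female and 204, 190.1, 225 and 179.7 CPM in male hearts, again with overlap. Exact reads made up 31.0% to 44.5% of it by heart. On the mouse entry mir-145a, 38 of 159653 counts on the 3' arm were exact, or 0.0238%, although 58.3% of those on its 5' arm were. The human and rat names held 26.5% of all miR-145-3p counts, and 22.5% to 31.4% by heart.

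Rat mir-195 and human mir-497 belong to the cluster on chromosome 11 shown above, whose 5p miRNAs are of the miR-15/16 family, known in the heart for repressing cell cycle genes around birth. miR-195-3p was counted at 38.0, 25.9, 23.5 and 42.8 CPM in female and 46.6, 34.8, 40.3 and 45.0 CPM in male hearts. Exact reads were 76.7% of it under the rat name, and 26.7% of the counts of mouse mir-195a on the same arm. The rat name held 37.1% of miR-195-3p counts, within 33.9% to 39.3% in every heart. miR-497-5p stood at 6.54, 7.65, 12.2 and 4.88 CPM in female and 5.48, 7.40, 5.84 and 6.40 CPM in male hearts. Its exact share of 77.3% was close to the 76.6% of mouse mir-497a, of whose seed RefSeq lists 10 mouse mature miRNAs. The human name held 20.3% of miR-497-5p counts.

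The other names of this kind carried little. Human mir-1843 held 1431 counts, rat mir-26a 419 and human mir-126, the name of an endothelial miRNA, 98, all with 0 exact reads. The mouse mir-126 entries held 19410471 counts on the arm of the last.

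For 5 names RefSeq has a mouse gene of the same name, yet no mouse entry of that name was listed in these tables. They are mir-299b, mir-494, mir-452, mir-540 and mir-205, with 2721 counts in all, or 0.153% of the member counts. All 180 counts of rat mir-540 were exact, as were 583 of 623 of rat mir-494 and all 337 of human mir-452. Of the 129 counts of rat mir-452, 32.6% were exact, whereas rat mir-299b, with 1437 counts, and rat mir-205, with 15, had none. The mouse mature sequences of the names with exact reads are given with their seeds in capitals. miR-494-3p lies at chr12:109715367-109715388 and miR-540-3p at chr12:109586122-109586141 on the plus strand, and miR-452-5p at chrX:72262271-72262292 on the minus strand.
miR-494-3p: uGAAACAUacacgggaaaccuc
miR-540-3p: aGGUCAGAggucgauccugg
miR-452-5p: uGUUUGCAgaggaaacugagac
miR-299b-5p, the miRNA opposite miR-299a shown above, stood at 5.02, 5.83, 6.43 and 6.72 CPM in female hearts and at 4.54, 4.56, 5.55 and 4.07 CPM in male hearts. The lowest female heart lay within the male range. The mouse mir-299 entries had 67 counts on the 5' arm, all of them exact, and 1014 on the 3' arm, of which 61.3% were exact.

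A further 27 names share their number with a mouse entry but not the letter or copy. They held 18.4% of the member counts, of which 35.3% were exact, and human mir-103b made up most of them. Human mir-7-3, summed with its copies above, held 39887. Human mir-103b is annotated on the strand opposite to mir-103a, the human counterpart of mouse mir-103, which is known for regulating insulin signalling and the miRNA maturation enzyme Dicer. Its copies mir-103b-1 and mir-103b-2 held 108110 and 108120 counts on the 5' arm, each with 41467 exact reads and none unique to one entry. Summed, miR-103b-5p stood at 1140.0, 589.5, 806 and 680.3 CPM in female and 1213, 831, 659 and 825 CPM in male hearts, and the sexes overlapped. Exact reads made up 38.4% of it, and 29.4% to 50.3% by heart. The mouse mir-103 entries were listed at 0 on the 5' arm and held 9585 counts on the 3' arm, none of them exact. The mature mouse miRNA of that arm, at chr11:35782447-35782469 on the plus strand, shares its seed with miR-107-3p.
miR-103-3p: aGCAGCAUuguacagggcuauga

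Human mir-3074 held 26646 counts on the 5' arm, all unique to it and 3.36% exact. miR-3074-5p stood at 105, 99.2, 73.8 and 87.8 CPM in female and 103, 91.7, 131 and 128 CPM in male hearts. The mouse mir-3074 entries held 1513949 counts on the same arm, of which 0.00687% were exact. The human name held 1.67% to 1.83% of the 5' arm counts of all mir-3074 entries in each heart. This was the narrowest of the ranges plotted below relative to its mean. The facing mouse entries mir-24-1 and mir-24-2 held 225387 and 225396 counts on the 3' arm with 0 exact reads, as did 24 of the 308 mouse arms with at least 1000 counts, or 7.79%. Rat mir-3074 had only reads outside the mature arms, 2156 in all.

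Several other names with a mouse number held a small part of the counts of a number that is abundant under other entries. The shares given here are of all entries of the same number and arm. Whether these entries are the same miRNA was not tested by sequence. Human miR-499a-5p, from the hairpin in a cardiac myosin gene, held 7246 counts, or 0.547% of those of its number and arm. None of its reads was exact, while 51.2% of the mouse counts were. Its level was 27.5, 28.6, 29.4 and 23.3 CPM in female and 20.9, 26.7, 24.9 and 38.5 CPM in male hearts. Human mir-486-1 and mir-486-2, names of an erythroid and muscle miRNA, held 0.487% of miR-486-5p and 16.0% of miR-486-3p, both with 0 exact reads. On the 3' arm the mouse entries had none either among 25843 counts. The 5' arm of mir-486-1 stood at 28.1, 31.3, 45.8 and 39.7 CPM in female and 32.3, 46.8, 34.1 and 26.6 CPM in male hearts. Human mir-101-2 held 0.766% of miR-101-3p, the 6 human mir-320b, mir-320c and mir-320d names 2.45% of miR-320-3p and rat mir-191b 0.267% of miR-191-5p. Rat mir-1 held 0.0475% of miR-1-3p, most of which was listed under mir-1-1, a name set aside here.
The mouse sequences of the miR-499 and miR-101 arms named here, from chr2:155622893-155622913 on the plus strand and chr4:101346957-101346977 on the minus strand, are as follows.
miR-499-5p: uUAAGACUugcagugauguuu
miR-101a-3p: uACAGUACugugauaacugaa
Rat mir-409b went the other way, with 91.7% of the 5' arm counts listed under the number 409, 3453 against 311 under the mouse name. Of its reads 6.63% were exact, against 43.4% of the mouse ones. Human mir-151a and mir-151b had exact shares of 91.5% and 83.0%, above the 34.9% of mouse mir-151 on that arm, but held 0.212% of its counts. Human mir-499b with 3239 counts, rat mir-31b with 253, rat mir-218b with 224, rat mir-135a with 76 and rat mir-409a with 10 had their counts on a 3' arm on which the mouse entries of their number were listed at 0. Exact reads were 11 of those of mir-135a and 0 of the others.

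**Figure D2:**
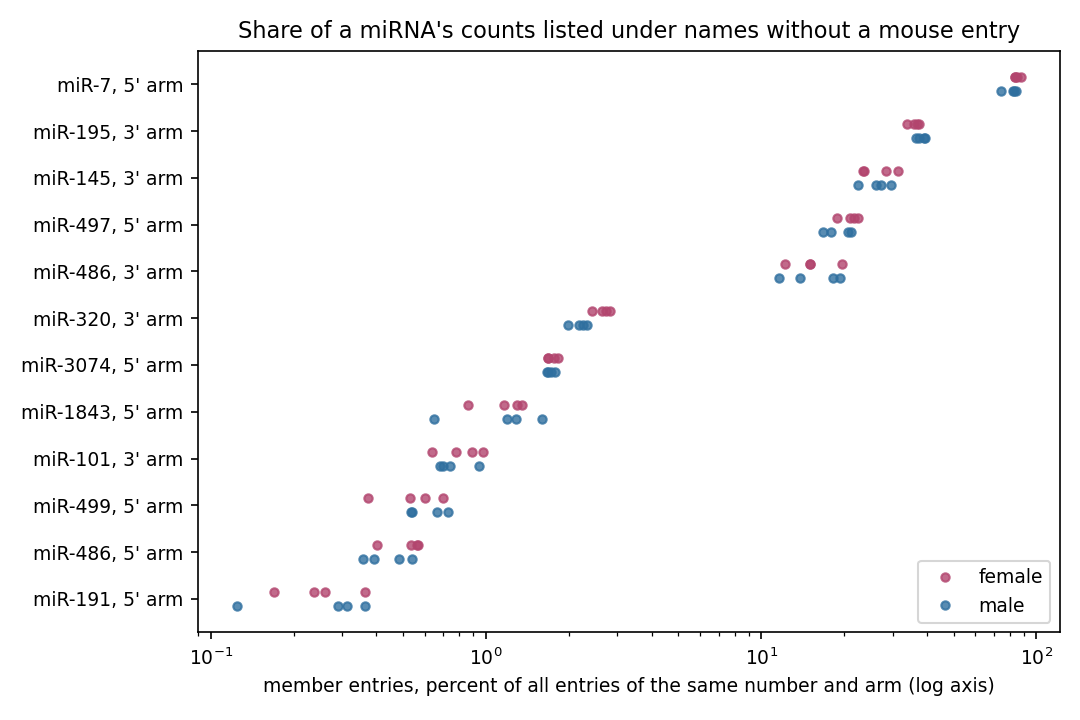
Share of the counts on one arm of a miRNA number that was listed under human or rat names without a mouse entry. It is in percent of all entries of the same number and arm, on a log axis. Each point is a heart, coloured by sex, for 12 arms. miR-7-5p lies at 74.4% to 87.6%, miR-195-3p, miR-145-3p and miR-497-5p between 16.7% and 39.3%, and miR-191-5p at 0.124% to 0.365%.

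The remaining 59 names have a number that no mouse entry carries, and 17 of them had no mature counts. They held 72.9% of the member counts, and 0.753% of these were exact. The most abundant was rat miR-3596d-3p, whose 869156 counts were all unique to it and none exact. The names mir-3596a to mir-3596d were listed from general knowledge as annotated opposite let-7 hairpins, which was not checked by sequence. The level of miR-3596d-3p was 2882, 2314, 1415 and 5192 CPM in female replicates 1 to 4 and 3913, 4021, 4596 and 2648 CPM in male replicates 1 to 4. Female replicate 4 was highest and female replicate 3 lowest, 3.67-fold apart, and the male hearts lay between them.

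Rat miR-3571-5p followed with 198038 counts, likewise all unique and none exact, at 985, 733, 431 and 822 CPM in female and 967, 727, 663 and 874 CPM in male hearts. Rat miR-3556a-5p had 118235 counts, 3.03% of them exact, at 383, 636, 358 and 475 CPM in female and 455, 382, 534 and 307 CPM in male hearts. Rat miR-3574-5p had 39207 counts, 5.17% of them exact, at 188, 129, 215 and 138 CPM in female and 125, 124, 132 and 122 CPM in male hearts. The male hearts lay close together, and the lowest female heart fell among them.

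Below these lay human miR-3184-5p, from a hairpin annotated opposite mir-423, with 34.1 to 50.8 CPM in female and 35.8 to 46.5 CPM in male hearts. Rat miR-3543-5p ran from 12.8 CPM in female replicate 3 to 57.0 CPM in male replicate 4. Human miR-9985-5p ran from 18.7 to 33.8 CPM over all hearts. None of the reads of these was exact. Rat miR-3590-5p, at 18.8 to 29.3 CPM, was 15.6% exact, and rat miR-3570-5p, at 6.97 to 9.58 CPM, 42.8%. Human mir-424, the human counterpart of mouse mir-322, had 126 counts in 6 hearts and none exact.

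Over all members, exact and unique reads did not go together. Unique reads made up 79.9% of the member counts, close to the 80.2% of the mouse entries, while the exact share was 12.2% against 26.2%. By counts, rat names were 98.8% unique and 1.69% exact, and human names 28.9% unique and 40.6% exact. Of the 479565 human counts, miR-103b-5p held 216230 and miR-7-5p 119520. Their exact reads were 82934 and 91246, and their unique reads 0 and 119. By entry the species were closer. Of 49 human entries with mature counts, 34 were fully unique and 28 had no exact reads, against 30 and 18 of 35 rat entries. By heart, the exact share of the members was 16.6%, 13.2%, 16.1% and 9.77% in female and 13.0%, 10.8%, 8.79% and 12.4% in male hearts. It was lowest in the hearts with the most mir-3596d, and without that name it lay between 20.7% and 28.5%. No exact reads at all were listed for 46 of the 84 entries with mature counts, or 54.8%, against 100 of 461 mouse entries, or 21.7%.

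**Figure D3:**
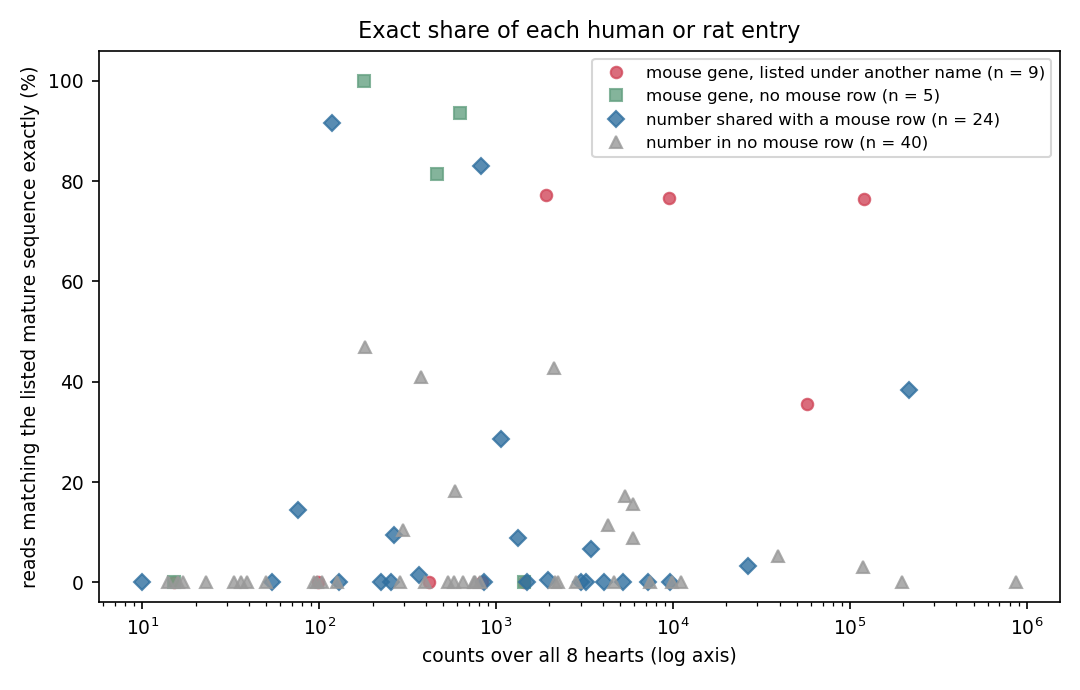
Exact reads in percent of the counts of each of the 78 member miRNAs, against its counts over all 8 hearts on a log axis, with the kind of name by colour and marker. The 2 most abundant miRNAs of a number that no mouse entry carries lie at 0%, and miR-7-5p, miR-195-3p and miR-497-5p at 76.3% to 77.3%.

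Members were mostly listed on a single arm. Of the 84 entries, 47 had counts on the 5' arm only, 33 on the 3' arm only and 4 on both, or 4.76%, against 179 of 461 mouse entries, or 38.8%. The 4 with both were mir-145 and mir-195, which are mouse miRNAs under another name, and mir-486-1 and mir-486-2. The 5' arm took 45.7% of the member counts and 89.5% once mir-3596d was left out. These counts depend on which reads a name received, and arm use of a gene cannot be read from them.

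**Figure D4:**
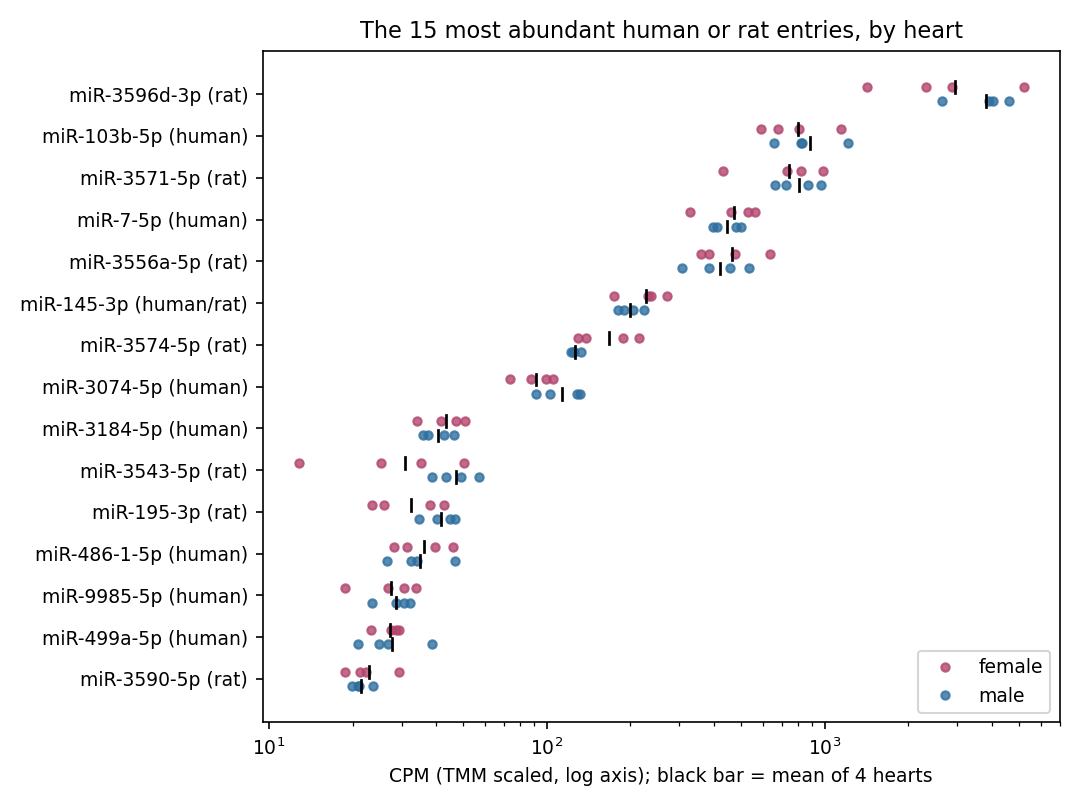
Level of the 15 most abundant member miRNAs in each heart, in CPM scaled by trimmed mean of M values on a log axis, with the species of the entry in parentheses. Points are hearts, coloured by sex, and black bars are means of 4 hearts. The sexes overlap for each of the 15, and levels run from 5192 CPM for miR-3596d-3p in female replicate 4 to 12.8 CPM for miR-3543-5p in female replicate 3.

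No member differed between female and male hearts in edgeR's quasi-likelihood test. Of the 566 miRNAs tested over the whole tables, 63 were members. The remaining 15 member miRNAs did not pass the filter, in which the minimum count is scaled to library size. At an adjusted p under 0.05 (Benjamini-Hochberg over all 566), 0 of the 63 members and 0% of all miRNAs passed. DESeq2 called 0 members and 3 of all miRNAs, and edgeR called 0 members and 2 of all without female replicate 3. At an unadjusted p under 0.05 in edgeR, 1 of the 63 members and 4.95% of all miRNAs passed. All 4 female hearts lay above all 4 male hearts for 1.77% of all miRNAs and below them for 0.883%, and for no member in either direction. The fold change was towards female hearts in 31 and towards male hearts in 32 members, but in 45 and 18 when scaled by library size alone. The median log2 fold change, female minus male, was -0.0043 over the members and -0.05 over all miRNAs. The median standard error was 0.30 over the members and 0.29 over all. A difference of the size of that error would not be told apart from none. Fold changes well above their own error also went uncalled, as the values below show.

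The member with the smallest p was human miR-3168-5p, at 2.35, 4.55, 6.45 and 1.16 CPM in female and 1.54, 0.808, 2.85 and 0.814 CPM in male hearts, with 0 exact reads among 746. Its log2 fold change was 1.27 with a standard error of 0.55 in edgeR (adjusted p = 0.812), and the sexes overlapped. Rat miR-3592-5p stood at 1.14, 0.525, 0.374 and 0.773 CPM in female and 3.42, 1.10, 0.440 and 2.12 CPM in male hearts, a log2 fold change of -1.34 with a standard error of 0.62. Human miR-4791-5p stood at 2.86, 1.40, 0.748 and 1.52 CPM in female and 4.50, 2.65, 1.06 and 4.53 CPM in male hearts, a log2 fold change of -0.97 with a standard error of 0.50. Both were highest in male replicates 1 and 4, and neither passed the adjusted threshold.

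The log2 fold change of miR-3596d-3p was -0.36 with a standard error of 0.34, and moved to -0.10 without female replicate 3 and to -0.78 without female replicate 4 (edgeR adjusted p = 0.659). It was -0.13 with 0.25 for miR-103b-5p, the sign of which turned to 0.05 when scaled by library size alone. It was 0.08 with 0.20 for miR-7-5p, 0.19 with 0.19 for miR-145-3p and -0.36 with 0.23 for miR-195-3p. The largest ratio to its error among the 15 most abundant was that of miR-3574-5p, at 0.41 with 0.20 (edgeR adjusted p = 0.812). Among members of a number that no mouse entry carries, 30 were tested, 12 towards female and 18 towards male hearts. Of those with a shared number or an alias, 29 were tested, 17 towards female and 12 towards male hearts, and none in either group was called. Of 10 names listed from general knowledge as annotated opposite another hairpin, 6 were among the members. They are mir-3596a to mir-3596d, mir-3074 and mir-3184, and 4 of their miRNAs were tested. Of these, 1 lay towards female and 3 towards male hearts, and none was called. Exact reads were 0 in 4 of the 5 member miRNAs with mature counts. The list left out mir-103b and mir-299b, given above as opposite-strand names. miR-103b-5p was 38.4% exact with a log2 fold change of -0.13, and miR-299b-5p was 0% exact with 0.36.

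**Figure D5:**
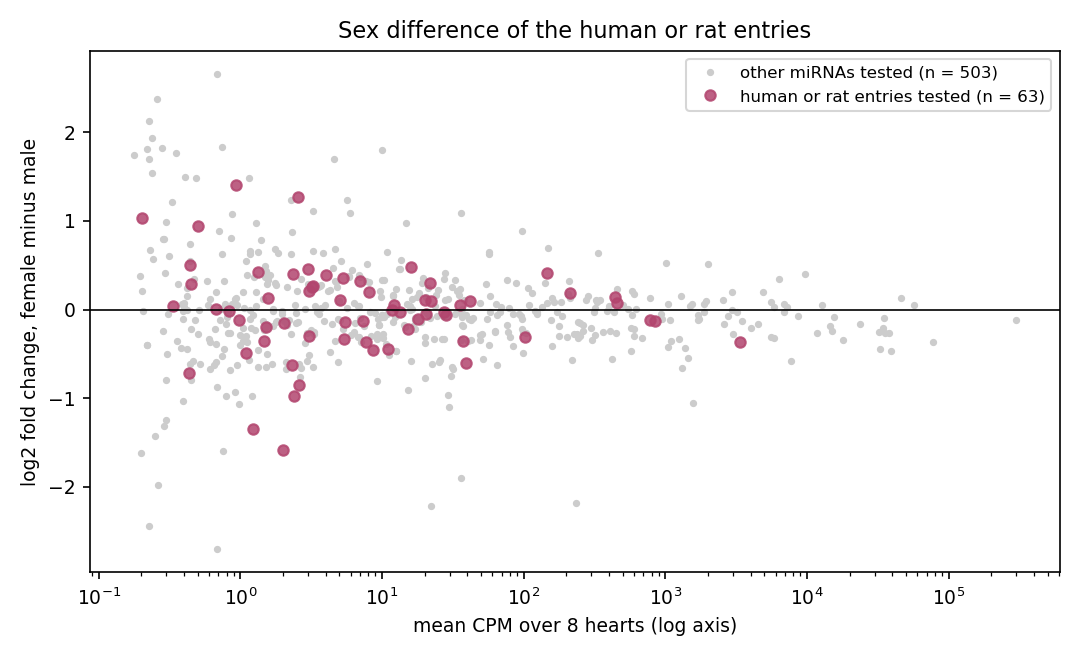
Log2 fold change, female minus male, of each of the 566 miRNAs tested, against its mean level in CPM over 8 hearts on a log axis. Coloured points are the 63 members and grey points the other 503 miRNAs. Members lie on both sides of 0, from -1.58 to 1.41, with the widest values at low levels.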

How the data were processed

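The authors deposited 1 table per heart with raw read counts per hairpin entry of mouse, human or rat. Per the file headers, these are split by arm into all, exact, unique and unique exact reads. The submitters' processing notes name STAR and mm10. The sources used here give neither the trimming nor the counting tool and its rule for shared reads. Entries of one name and arm were summed over species, and numbered copies were summed where under 50% of their reads were unique. Counts were tested with edgeR 4.0.16 in R 4.3.3 (filterByExpr, minimum count 10 and total 15, TMM scaling, quasi-likelihood test, Benjamini-Hochberg), fitted on all miRNAs of the 8 libraries with sex as the only term. The fit was tested on simulated data. DESeq2 1.42.0, other scalings and filters, a replicate block and leaving out each heart were alternatives. Names were matched to RefSeq mouse genes, aliases and sequences (GRCm38.p6).

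Members and lists were chosen with earlier results of these data known. Named in the sex comparison were the 15 members of highest mean CPM, the 5 of smallest p, and the 4 each of highest and lowest exact share above 1000 counts. Other members are given by kind of name. A rule on identical mature sequences could not be applied, since human and rat sequences were not used.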

Additional observations from a re-analysis of the deposited data

Results flagged for a closer look

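The share of mature counts held by the human or rat entries was 0.840% in female replicate 4, far from the 0.603% to 0.612% of the other female hearts. It was the only one of 48 groups of 4 hearts examined (the leading members and the summed shares, by sex) in which a heart stood off this far, while chance alone gives about 2.4 such groups, or 1 in 20. miR-3596d-3p was at its highest in that heart, at 5192 CPM, and without mir-3596d the share there was 0.339%, below the 0.351% to 0.412% of the other female hearts.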

How the results depend on the processing

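The count of members called between the sexes was 0 under every alternative run. The count over all miRNAs, 0 as reported, was 3 with DESeq2, 1 without a filter, 1 with at least 10 CPM in 4 libraries, 1 with exact matches alone and 1 with the replicate block, and 0 to 2 when 1 heart was left out. Same-numbered hearts of the 2 sexes share no stated origin. Their deviations correlated at 0.328, 0.270, 0.202 and -0.00344, and 6 of 8 hearts correlated best with their own number, a hint of pairing that 1 of 4 pairs did not show. With the block, members at an unadjusted p under 0.05 went from 1 to 4, and the smallest adjusted p of a member from 0.812 to 0.331. The mean share of the members (0.681%), its exact part (12.6%) and its unique part (79.2%) became 6.96%, 15.5% and 97.8% with the names set aside kept in, 0.496%, 1.77% and 98.7% for rat names alone, 0.185%, 40.7% and 28.8% for human names alone, and 0.348%, 23.9% and 60.4% without mir-3596d. The median log2 fold change of all miRNAs moved by 0.105 under upper quartile scaling and by 0.179 under library size alone. The members' median lay 0.0458 above it as reported and 0.0442 and 0.0478 above it under these. Of 341 fold changes of the 21 named members under alternatives, 313 kept their direction and 28, in 7 members, changed sign, none with a call. miR-103b-5p became 0.0524 with library size alone and 0.143 with exact matches alone, miR-3571-5p 0.00808 with library size alone, and miR-9985-5p 0.0366 under upper quartile scaling and 0.0697 by library size alone. miR-499a-5p became 0.0137 with RLE factors, 0.0815 under upper quartile scaling, 0.176 by library size alone, 0.0139 with DESeq2, 0.0530 without a filter, 0.00316 with at least 10 CPM, 0.00679 on the deposited rows and 0.00381 with the replicate block. With 1 heart left out, sign reversals apart, the fold change of miR-3596d-3p ran from -0.783 to -0.101, of miR-3543-5p from -0.944 to -0.314 and of miR-3168-5p from 0.920 to 1.96. The range was -0.208 to 0.0944 for miR-103b-5p, -0.177 to 0.113 for miR-3571-5p, -0.0209 to 0.255 for miR-7-5p, -0.0498 to 0.389 for miR-3556a-5p, -0.0430 to 0.333 for miR-486-1-5p, -0.178 to 0.133 for miR-9985-5p and -0.0807 to 0.230 for miR-499a-5p. The cause was not tested. Members tested below 1 CPM had standard errors of 0.44 to 1.64 on the log2 scale.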

Other observations

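Some members of low level were carried by few hearts. Human miR-1297-3p, with 2157 counts and none exact, stood at 17.5 CPM in female replicate 2 and 26.8 CPM in male replicate 3, and at 1.61 to 3.76 CPM in the other hearts. Human miR-4492-3p, 47.0% exact, stood at 6.66 CPM in female replicate 1 and at 0.323 CPM in male replicate 3, and human miR-10400-5p at 3.68 CPM in female replicate 1. The other hearts were listed at 0 for both of these last miRNAs.

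miR-494-3p and miR-452-5p, mouse genes without a mouse entry in these tables, were highest in the same hearts. miR-494-3p stood at 7.15, 4.39 and 3.18 CPM in male replicate 1, female replicate 1 and male replicate 4, and miR-452-5p at 8.06, 2.70 and 3.11 CPM in the same order. The other hearts lay at 0.851 to 2.17 CPM for the former and, where listed, at 0.293 to 0.714 CPM for the latter. miR-3592-5p was also highest in male replicates 1 and 4 and stood next, at 1.14 CPM, in female replicate 1. These 3 hearts had the lowest scaling factors, 0.847, 0.875 and 0.848, and the part of scaling in these levels was not tested.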
